A study of Mus musculus with 384 samples.

Results

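Cytosolic ribosomal protein genes, which encode the protein part of the ribosomes outside mitochondria, were followed across single sorted cells of mouse kidney. They were taken from the deposited tables by name: protein-coding genes called Rpl or Rps with a digit, or Rplp0, Rplp1, Rplp2 or Rpsa, without Rps6k kinases and names with -ps, which mark pseudogenes. Of the 40594 genes listed in both tables, 86 met this rule. They were 43 genes of the large subunit, 3 of its stalk, 31 of the small subunit, 8 paralogs (close relatives of a subunit gene) and Rps19bp1, which matches by name and encodes a binding partner of a ribosomal protein. The 77 genes of the subunits and the stalk are called canonical below. Fau, which encodes a ribosomal protein fused to a ubiquitin-like protein, is not caught by such names and was read separately.

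The study sorted single cells of kidneys from mice aged 8 weeks into wells of 96-well plates, and each well became 1 library. Cells of the CD45- gate were labelled positive for PDGFRB and negative for CD45, and cells of the CD45+ gate positive for both. Pericytes and fibroblasts carry the growth factor receptor PDGFRB, and leukocytes carry the phosphatase CD45, the product of Ptprc. Each gate had 1 plate in each of 2 batches, the sample names hold the letters UUO, left unexplained by the labels, and the series title names parabiosis and the part of monocytes in the myofibroblasts of kidney fibrosis. No genotype, no untreated group and no animal is named, so each plate was 1 sample, wells were not treated as replicates, and differences between plates carry no p-value. Intervals below are exact 95% intervals for counting error only, since reads without molecular identifiers are not independent molecules.

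Wells needed 10000 or more reads and 500 or more genes detected, which left 93 and 93 CD45- wells and 92 and 90 CD45+ wells of batches 1 and 2. Kept wells held 10497 to 1246070 reads, and the plates' median wells held 225559 to 288818. All 4 plates use the same 96 well positions, and no 2 kept wells had identical counts. Ptprc, which the sort separates on, had 0.136 and 0.976 CPM (the plate's summed reads scaled to 1000000) in CD45- and 469 and 303 CPM in CD45+ wells. Pdgfrb had 294 and 219.6 CPM in CD45- wells but 0.113 and 5.73 CPM in CD45+ wells, which are labelled positive for its protein. Wells were also grouped by fixed markers. In the CD45- gate, a well was endothelial with at least 3 of 10 endothelial markers at 100 CPM or more, and otherwise collagen-rich with Col1a1, Col1a2 and Col3a1 summed to at least 1000 CPM. In the CD45+ gate, a well was C1q-rich, as many macrophages are, with C1qa, C1qb and C1qc summed to at least 1000 CPM.

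The ribosome is the machine that translates messenger RNA into protein. Its small subunit reads the message, its large subunit joins the amino acids, and the stalk of the large subunit recruits elongation factors. Ribosomal protein genes are active in every cell type, many of their messages begin with a run of pyrimidines (C or T) through which their translation is controlled, and their messages have been copied back into the genome many times as processed pseudogenes.

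Because of those copies, the sequence of a member decides how far a short read can be told from its relatives, and the stretches below show this. Each is coding bases 101 to 150 of 1 reference transcript (GENCODE M21, build GRCm38), for a member of each subunit with very few reads and one with very many.
Rpl24: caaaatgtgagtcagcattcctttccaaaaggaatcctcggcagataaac
Rps6: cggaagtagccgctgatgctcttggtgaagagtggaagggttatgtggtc
Rpl32: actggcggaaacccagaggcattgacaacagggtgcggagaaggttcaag
Rps19: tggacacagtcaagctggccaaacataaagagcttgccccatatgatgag
The stretch of Rpl24 (chr16:55966275-55971435, plus strand) was found letter for letter in 4 other annotated genes, 2 of them pseudogenes. That of Rps6 (chr4:86854660-86857412, minus strand) was found in 6 other genes, all pseudogenes, and that of Rps19 (chr7:24884371-24889806, plus strand) in 7 pseudogenes. The stretch of Rpl32 (chr6:115805505-115808747, minus strand) was found in no other gene. Of all 50-base windows of the coding sequence, none was unique to Rpl24 or Rps6, 18.9% were unique to Rps19 and 62.4% to Rpl32. The window length was set by the sequencing, which the labels give as paired reads of 50 bases.

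The reads were spread over the members very unevenly, and the order of the members tended to follow the uniqueness of their sequence. Rps14, a protein of the small subunit's platform, held 12.2% of all reads on the members. Rps19, mutated in Diamond-Blackfan anemia, held 7.74%, Rpl32 held 6.50% and Rpl13a, which also acts in the interferon-gamma response as a translational repressor, held 5.48%. In batches 1 and 2, Rps14 stood at 3804 and 3185 CPM in the CD45- gate and at 4386 and 3735 CPM in the CD45+ gate, and its interval in the CD45- plate of batch 1 was 3782 to 3827 CPM. Rpl32 stood at 1826, 1414, 2347 and 2484 CPM in the same order. At the other end, Rpl24 stood at 0.0341, 0.0945, 0.113 and 0.0703 CPM, on 9 reads in all. Rps6, the classic substrate of the S6 kinases, stood at 0.0682, 0.0945, 0.0755 and 0.141 CPM, on 11 reads. Both proteins are part of every complete ribosome, and both were among the 25 canonical members under 10 CPM on average over the 4 plates.

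**Figure D1:**
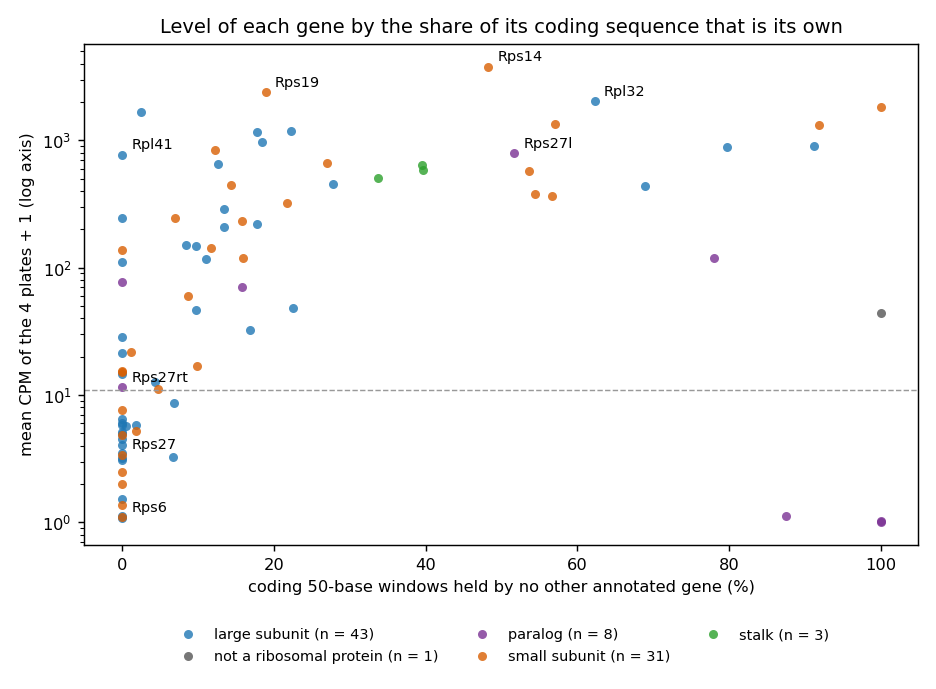
Mean CPM of the 4 plates plus 1 (log axis) against the percent of a gene's coding 50-base windows that no other annotated gene holds, 1 point for each of the 86 genes, coloured by role; the dashed line marks 10 CPM. Most genes with no unique coding window lie under the line, and the genes at 1000 CPM or more, Rps14 and Rps19 among them, have at least 2.50% of their coding windows to themselves.

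Of those 25 low members, 20 had no unique coding window, and the most that any had was 6.79%. The other low members include Rpl5 and Rpl11, which carry the 5S RNA into the large subunit and bind Mdm2, and Rps27a, a fusion with ubiquitin. Of the 9 canonical members at 1000 CPM or more (Rps14, Rps19, Rpl32, Rpl13a, Rps9, Rps3, Rpl14 and Rpl37 among them), none lacked a unique coding window, and their median was 48.3%. Over all canonical members, the 29 without a unique coding window had a median of 3.94 CPM and the 48 with one had a median of 342 CPM. Per kilobase of transcript the medians were 6.28 and 384 CPM. The rank correlation across these 77 genes between mean CPM and the percent of unique coding windows was 0.80, and it was 0.76 for CPM per kilobase. With the windows of the whole transcript, the correlations were weaker, at 0.67 and 0.62. Across all 86 members they were 0.60 and 0.56 for coding windows and 0.50 and 0.44 for the whole transcript. Genes are not independent replicates, and all values come from the same 4 plates. Mean CPM did not follow transcript length, with a rank correlation of 0.061 across the 77 canonical members.

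The low members and the genes that share their sequence both held a small part of the reads. The 25 low members together held 8952 reads, or 0.00771% of all reads. The 534 other genes that share a coding window with them, 510 of them pseudogenes, held 70914 reads, or 0.0610%, of which 31376 were on pseudogenes. Where reads of the low members were counted was not tested. Whether the authors' counting left out reads that fit several places is not given in the sources used here, and its part in the low values was not tested. Exceptions ran against the order: Rpl41, the smallest protein of the ribosome, had no unique coding window and stood at 828, 575, 1053 and 630.4 CPM, and Rpl13 stood at 335, 169, 266 and 205 CPM. Rps28 and Rpl38, also without one, averaged 137 and 110.2 CPM. For these 4 genes, 19.7 to 57.98% of the windows of the whole transcript were unique. Genes at lower levels, also without a unique coding window, reached as much: Rps29, at 6.64 CPM, had 64.2%, Rpl27a, at 27.5 CPM, had 64.1% and Rpl28, at 2.22 CPM, had 52.6%. Fau averaged 2.72 CPM.

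The Rps27 family holds the canonical Rps27, its copy Rps27rt and the paralog Rps27l. The stretches below are coding bases 101 to 150, with capitals at bases that differ from Rps27.
Rps27: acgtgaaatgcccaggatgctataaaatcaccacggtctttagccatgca
Rps27rt: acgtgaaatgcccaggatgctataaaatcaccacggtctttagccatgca
Rps27l: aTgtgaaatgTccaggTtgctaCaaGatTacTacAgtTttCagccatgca
Rps27 and its copy Rps27rt have the same 252 coding bases, while Rps27l, a target of p53, shares 192 of 252 (76.2%). Of the coding windows, 51.7% were unique for Rps27l and none for Rps27 or Rps27rt. Rps27l stood at 937, 565, 879 and 768 CPM, again with the CD45- plates first. Rps27 stood at 1.47, 2.58, 4.57 and 1.02 CPM and Rps27rt at 13.4, 4.69, 15.4 and 8.40 CPM. Per kilobase of transcript the means were 1578 CPM for Rps27l, 6.98 CPM for Rps27 and 28.03 CPM for Rps27rt, so in every plate the paralog was counted far above the canonical gene.

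Among the other paralogs, 3 had mostly unique coding sequence and almost no reads. Rpl3l, known from muscle, had all coding windows unique and 1 read in each plate of batch 2 and none in batch 1. Rpl39l, known from testis, had all windows unique and no read in any kept well, with exact upper bounds of 0.116 to 0.139 CPM, against 254, 133, 292 and 157 CPM for Rpl39, a protein at the exit tunnel. Rpl10l, also known from testis, stood at 0.102, 0.189, 0.0378 and 0.141 CPM with 87.5% of its coding windows unique, but its partner Rpl10 has none and stood at 9.81, 2.52, 8.16 and 1.55 CPM. Rpl36al stood at 85.7, 62.03, 106 and 51.3 CPM and Rpl36a at 8.31, 2.46, 3.36 and 1.62 CPM, both without a unique coding window. Rpl7l1 stood at 113, 132, 117 and 112 CPM and Rpl7 at 43.9, 40.6, 39.5 and 65.04 CPM; per kilobase the 2 were close, at 45.4 and 40.6 CPM. Rpl22l1, whose level Rpl22 is known to hold down, stood at 112, 62.2, 54.6 and 46.9 CPM and Rpl22 at 409, 255, 698 and 382 CPM. In CPM the paralog was thus lower and the canonical gene higher in the CD45+ plate of each batch. Control of the paralog by Rpl22 was not tested here, and the direction of a single member depends on the scale, as described below.

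The members together took a small and wide-ranging share of a well's reads. In the CD45- gate the median well gave them 2.85% in batch 1 (0.669 to 5.36% over 93 wells, SD 1.03) and 2.25% in batch 2 (0.589 to 4.89% over 93 wells, SD 0.854). In the CD45+ gate it was 3.21% in batch 1 (0.418 to 8.07% over 92 wells, SD 1.38) and 2.84% in batch 2 (0.488 to 7.30% over 90 wells, SD 1.03). The CD45+ median was thus higher by 0.353 percentage points in batch 1 and by 0.592 in batch 2, less than the SD over wells in either gate, and the wells of the gates overlapped widely. Over all pairs of a CD45+ and a CD45- well of the same batch, the CD45+ well was higher in 58.3 and 66.7% of pairs.

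The batches differed by as much as the gates. Batch 1 was higher than batch 2 by 0.602 points in the CD45- gate and by 0.363 in the CD45+ gate, and a well of batch 1 was higher in 67.8 and 60.8% of pairs. As the CD45- plate of batch 1 (2.85%) and the CD45+ plate of batch 2 (2.84%) had nearly the same median, a comparison across batches would have shown almost no difference between gates. The plates differ in other shares too: mitochondrial genes took a median of 3.80 and 3.18% in the CD45- plates and 5.35 and 4.02% in the CD45+ plates, and hemoglobin genes 0.778 and 0.309% against under 0.01%. Some markers of other cells moved with the gates too. The 5 red cell genes summed to 13893 and 2918 CPM in CD45- against 23.1 and 20.9 CPM in CD45+ wells. The 5 neutrophil genes summed to 0.784 and 1.73 against 1706 and 389 CPM. Of these, Csf3r and Cxcr2 were at 0 in the CD45- plate of batch 1 and Csf3r in that of batch 2. The 8 tubule genes, all detected in each plate, summed to 337 and 532 against 443 and 207 CPM. Their direction between the gates thus differed between the batches. The part of these cells in the shares was not tested. With mitochondrial and hemoglobin genes left out of the total, the gate difference was 0.395 and 0.531 points. A share moves with the other genes of a well, and the amount of ribosomal protein RNA per cell was not measured.

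**Figure D2:**
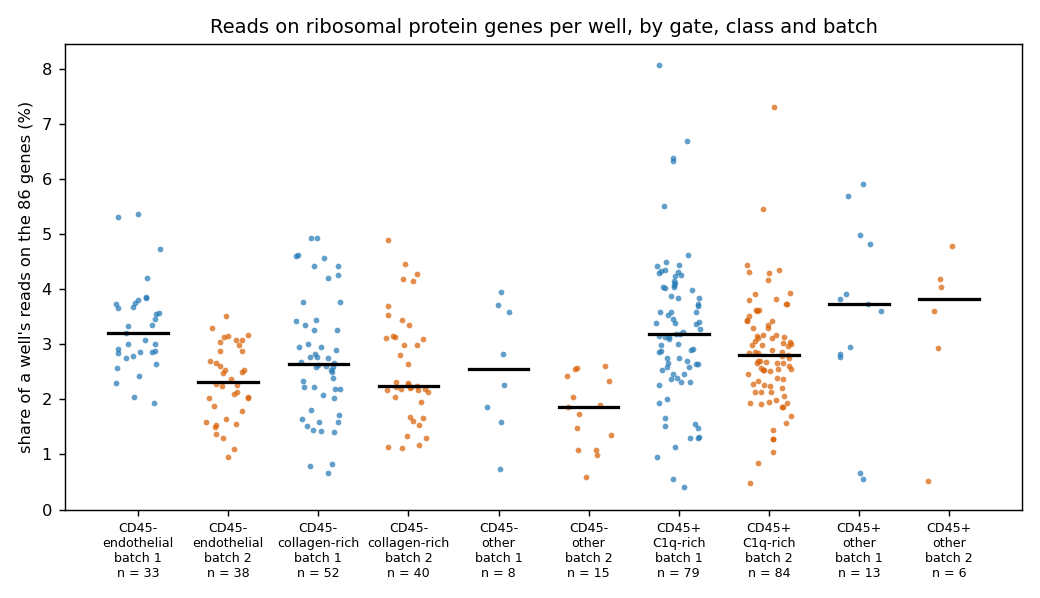
Percent of a well's reads on the 86 genes, 1 point per kept well, by gate, class and batch (blue, batch 1; orange, batch 2); black lines are medians and n is the number of wells. The wells of every class overlap those of every other, and batch 2 has the lower median in each class but the other CD45+ wells, at 3.74 and 3.82%.

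By class, endothelial wells gave the members 3.202% in batch 1 (33 wells, 1.94 to 5.36%) and 2.32% in batch 2 (38 wells, 0.960 to 3.52%). Collagen-rich wells gave them 2.64% (52 wells, 0.669 to 4.93%) and 2.25% (40 wells, 1.11 to 4.89%). Endothelial wells were thus higher by 0.562 points in batch 1 and by 0.0706 in batch 2, and they were the higher of a pair in 67.8% and then in 44.1% of pairs, so the batches do not give the same order. With a stricter limit for the classes, 5 markers or 5000 CPM, the differences were 0.903 and -0.00467 points, and in wells of at least 50000 reads they were 0.763 and 0.277. With mitochondrial and hemoglobin genes left out of the total, they were 0.907 and 0.261. The cut matters for these classes: 11 and 5 endothelial wells had just 3 markers, 8 and 6 wells had 2, and 19 and 17 endothelial wells also reached the collagen limit.

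C1q-rich wells gave the members 3.19% in batch 1 (79 wells, 0.418 to 8.07%) and 2.80% in batch 2 (84 wells, 0.488 to 7.30%). The CD45+ wells under the C1q limit were few, 13 and 6, and gave 3.74 and 3.82%, higher by 0.55 and 1.02 points. C1q-rich wells exceeded collagen-rich wells by 0.548 and 0.546 points, the steadiest over the batches of the 4 class differences, but these classes come from different plates, so class and plate cannot be told apart. Against endothelial wells they differed by -0.0137 points in batch 1 and 0.475 in batch 2. Within a factor of 2 of the C1q limit lay 19 and 10 wells.

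In the lowest well of each plate the leading gene was Malat1, except in the CD45+ plate of batch 1, where mt-Rnr2 led. The lowest well, CD45+ replicate 43 of batch 1, gave the members 0.418% and mitochondrial genes 80.3% of its 76143 reads. In the lowest well of the CD45- plate of batch 1, replicate 6, the members had 0.669%, mitochondrial genes 30.9% and the nuclear RNA Malat1 29.5%. In that of the CD45- plate of batch 2, replicate 19, they had 0.589, 19.2 and 24.4% in the same order. In the lowest CD45+ well of batch 2, replicate 46 at 0.488%, mitochondrial genes had 4.28% and Malat1 5.13%, beside plate medians of 4.02% and 1.74%. In the highest wells, CD45+ replicate 24 of batch 1 at 8.07% and replicate 14 of batch 2 at 7.30%, the leading members were Rps14 (21340 CPM) and Rpl32 (15798 CPM). The leading gene of both wells was the mitochondrial gene mt-Rnr2, with 4.35 and 8.61% of reads. All mitochondrial genes had 6.75 and 19.8% there, above the plate medians of 5.35 and 4.02%. Across the wells of a plate, the rank correlation of the members' share was between 0.24 and 0.33 with the well's reads. It was between 0.16 and 0.41 with the genes detected and between -0.38 and -0.18 with the mitochondrial share. With the hemoglobin share it was -0.39 and -0.28 in the CD45- plates and -0.074 and -0.14 in the CD45+ plates. With the Malat1 share it was between -0.22 and -0.083. These shares have the same total, and their part in the result was not tested. The 16 wells left out for low counts had a median of 2.87%, like the kept wells.

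The large and small subunits went together from well to well. The rank correlation between the share of large subunit and stalk genes and the share of small subunit genes was 0.65 and 0.74 over the CD45- wells and 0.76 and 0.45 over the CD45+ wells of batches 1 and 2, over 90 to 93 wells that share a plate and a total. The median ratio of large to small was 1.04 and 1.06 in the CD45- plates and 0.866 and 0.947 in the CD45+ plates. The median CD45+ well thus leaned to the small subunit in both batches. So did the median endothelial well of batch 1, at 0.964, beside 0.974 in C1q-rich wells of batch 2. By gene, median log2 ratios of CD45+ over CD45- were 0.20 and 0.24 for the large subunit and stalk. They were 0.12 and 0.25 for the small subunit, so single genes did not show the lean in both batches. Single genes followed each other weakly. Wells were thinned to 50000 reads for this. The median rank correlation of pairs among the 41 members of at least 100 CPM was then 0.161, 0.150, 0.156 and 0.0955 in the 4 plates. For all pairs of the 1531 genes of at least 100 CPM it was 0.0309, 0.0205, 0.0279 and 0.0393. Members and all genes were not matched for level above that floor, and the part of level in the gap was not tested. Rpl41 followed the rest of the members most closely, with a mean of 0.58 over the plates, and Rpl39 least, with 0.088. At that depth the median well had a read on 46, 42, 42.5 and 39.5 of the 86 members, against 56, 52, 50 and 49 before thinning.

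**Figure D3:**
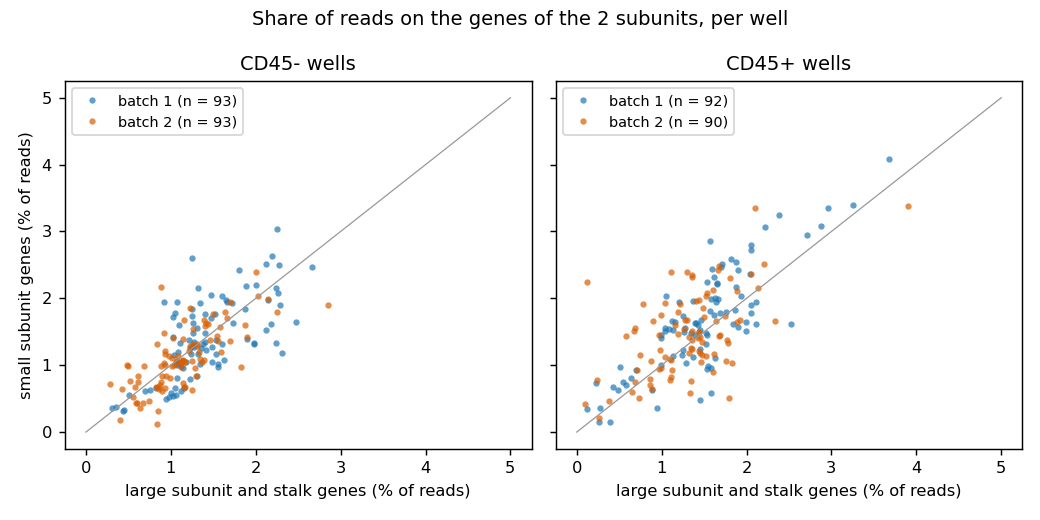
Percent of a well's reads on small subunit genes against the percent on large subunit and stalk genes, 1 point per kept well, for the CD45- plates (left) and the CD45+ plates (right); the line marks equal shares. Most wells lie along the line, with the CD45+ wells more often above it.

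Gene by gene, few members differed between the gates. A gene was called when the CD45+ plate differed from the CD45- plate at least 2-fold in the same direction in both batches; genes with a mean of 10 CPM or more over the 4 plates were tested. None of the 58 members at that level was higher and 1 was lower, while 31.6% of the 7805 genes tested were called, 742 higher and 1728 lower. Among genes of at least 100 CPM, 0 of 41 members were called against 32.1% of 1531 genes. The members' median log2 ratio was 0.15 in batch 1 and 0.23 in batch 2, against -0.51 and -0.50 for all tested genes. The members thus lay 0.67 and 0.74 above the median gene. Among genes of at least 100 CPM, the medians were 0.20 and 0.25 for members and -0.32 and -0.30 for all genes. Under TMM, another scaling, the gap was 0.61 and 0.70. TMM scales all genes of a plate alike, so it could hardly change this gap. Of the 58, 28 (48.3%) were positive in both batches, 7 negative in both and 23 of opposite sign. Of all tested genes, 20.9% were positive in both and 44.9% negative in both. TMM moved the median of all tested genes to -0.06 and 0.09 and the members' to 0.55 and 0.80, with 47 members positive in both batches and 1 negative in both, and 6 members were then called higher (Rpl22, Rpl35, Rpl35a, Rplp2, Rps18 and Rps9) and none lower, so a direction for a single member depends on the scale.

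Among the members with the steadiest excess in the CD45+ plates were Rps18, Rpl35, Rps9, Rpl35a and Rpl22. Rps18 stood at 755 and 442 CPM in the CD45- gate and 1363 and 780 CPM in the CD45+ gate, log2 ratios of 0.85 and 0.82. Rps9 stood at 1042 and 963 CPM against 1637 and 1717 CPM, ratios of 0.65 and 0.83. Rpl35, at the exit tunnel, stood at 145 and 83.4 against 233 and 142 CPM. Of its exon bases, 66.2% lie in exons of other annotated genes, and 8.44% of its coding windows were unique. Genes outside the members that share a coding window with Rpl35 held 21655 reads, against 17141 on Rpl35. Rpl35a stood at 194 and 149 against 307 and 232 CPM, and Rpl22 at 409 and 255 against 698 and 382 CPM. Both CD45+ plates exceeded both CD45- plates for Rps18, Rps9 and Rpl35a, while for Rpl35 and Rpl22 the CD45+ plate of batch 2 lay below the CD45- plate of batch 1.

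On the other side, Rpl27a was the member called. It stood at 57.3 and 26.5 CPM in the CD45- gate and 22.4 and 3.69 CPM in the CD45+ gate, log2 ratios of -1.32 and -2.55. It has no unique coding window, and a single well held 21.1, 40.5, 39.4 and 19.05% of its reads in the 4 plates. Without CD45- replicate 36 of batch 1 its ratio in that batch was -0.997, just short of the limit, and without CD45- replicate 36 of batch 2 the ratio there was -1.86. Rpl4, which lines the exit tunnel, stood at 801 and 1244 CPM against 402 and 1110 CPM, ratios of -0.99 and -0.16, and was higher in batch 2 than in batch 1 in both gates. Rpl29 (164 and 165 against 121 and 134 CPM), Rpl13a (1890 and 1691 against 1581 and 1546 CPM) and Rpl3, next to the catalytic center (15.3 and 12.7 against 6.65 and 11.98 CPM), were also lower in both batches, as were Rpl22l1 (above) and Rplp0.

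**Figure D4:**
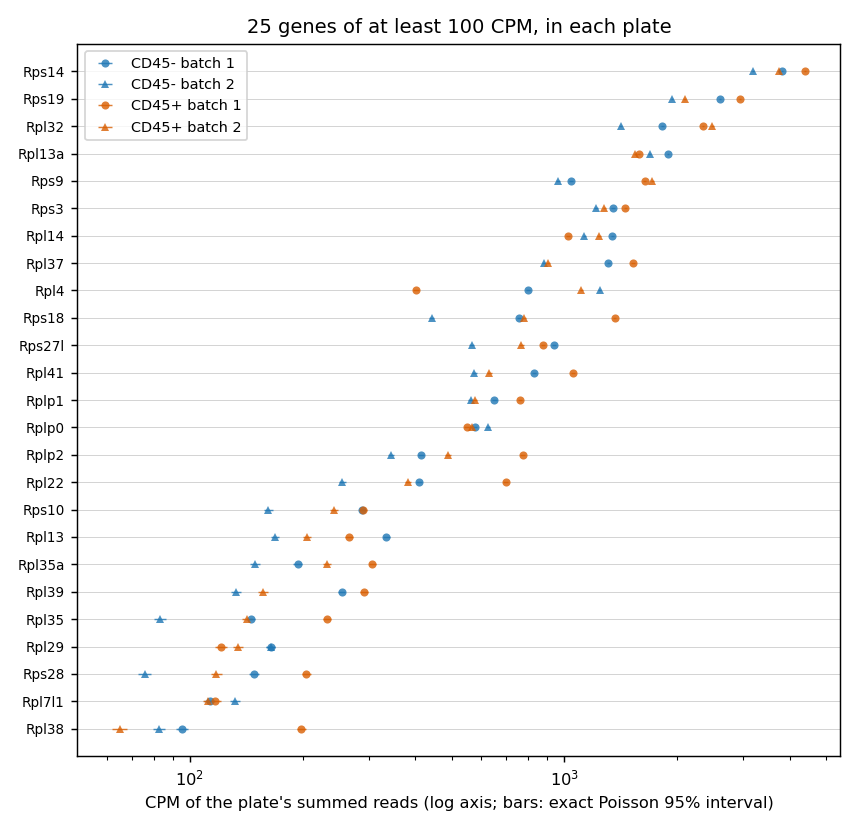
CPM of the plate's summed reads (log axis) for the genes of at least 100 CPM named in the text, with exact Poisson 95% intervals, in the CD45- (blue) and CD45+ (orange) plates of batch 1 (circles) and batch 2 (triangles). Rps14 leads in every plate, the plates of a gene lie close together, and the CD45- plate of batch 2 is often the lowest.

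The stalk proteins did not move as a set. Rplp2 stood at 414 and 345 CPM in the CD45- gate and 773 and 489.5 CPM in the CD45+ gate, ratios of 0.90 and 0.50. Rplp1, its partner, stood at 649.7 and 562 against 761 and 576 CPM, and Rplp0, the scaffold that holds both, at 576 and 625 against 548 and 565 CPM. Rpsa, also known as a laminin receptor, stood at 28.9 and 14.2 against 24.1 and 16.3 CPM. By subunit, the median ratio was 0.20 and 0.24 for the 29 large subunit and stalk genes tested and 0.12 and 0.25 for the 23 small subunit genes. Of those 23, 14 (60.9%) were positive in both batches and 0 negative in both, against 20.9 and 44.9% of all tested genes.

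**Figure D5:**
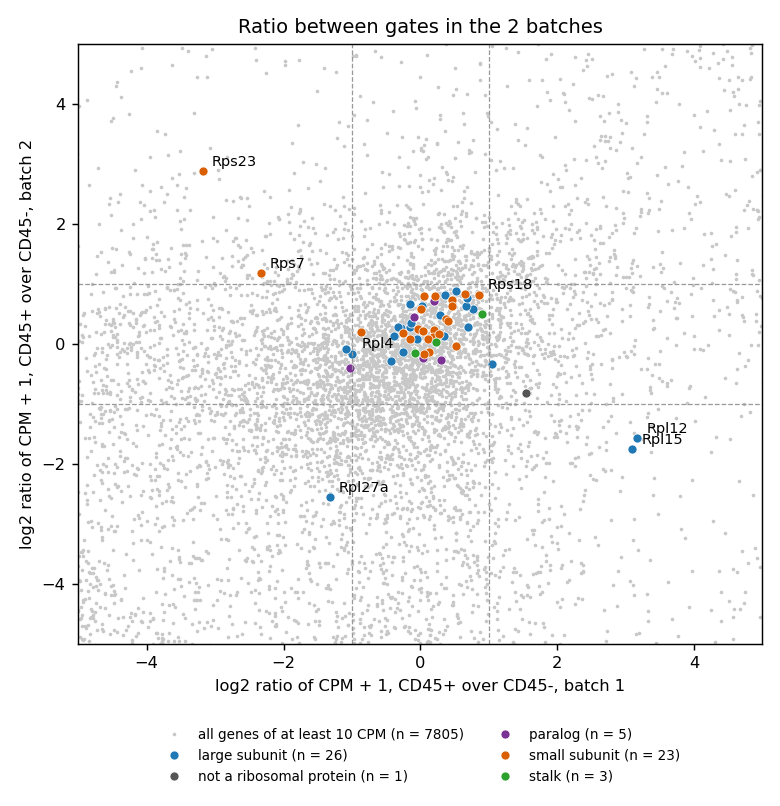
Log2 ratio of CPM plus 1, CD45+ over CD45-, in batch 2 against batch 1, for all genes of at least 10 CPM (grey) and the 58 members among them (coloured by role); dashed lines mark 2-fold, and 1317 grey genes lie outside the axes. Members gather near the center and slightly above 0, and Rpl27a, Rpl12, Rpl15, Rps23 and Rps7 lie apart.

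The first bases of the members in this comparison hold the pyrimidine run named above in some cases. The lines give 20 bases before and 10 bases from the RefSeq start (GRCm38.p6), with the run of C and T that covers the first transcribed base in capitals, for the steadiest members with such a run and for Rpl27a.
Rps18: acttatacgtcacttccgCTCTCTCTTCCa
Rps9: gtccaaccgccttgTCTCTCTTTgtctcgg
Rpl35: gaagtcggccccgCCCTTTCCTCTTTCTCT
Rpl35a: gcgcggcggggcttgCCTTCCTCTTTCCgc
Rpl27a: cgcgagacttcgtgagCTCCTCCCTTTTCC
They lie at chr17:33955656-33955685 (minus strand), chr7:3704021-3704050 (plus), chr2:39005122-39005151 (minus), chr16:33056462-33056491 (plus) and chr7:109519175-109519204 (plus). Read on the transcribed strand, a run of at least 5 pyrimidines covered an annotated start in 21 of the 66 members in the table (31.8%) and in 11.8% of all 27025 genes there. Members higher and lower in the CD45+ plates both held it, and Rpl22 did not; a start set a few bases off hides a run.

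Between the classes, the members again showed few calls. For endothelial over collagen-rich wells, 1 of 57 members was called, against 27.9% of all genes tested, and 0 of 40 at 100 CPM or more, against 25.1%. That member, Rpl12 at the base of the stalk, stood at 12.7 and 41.7 CPM in endothelial and 0.361 and 0.541 CPM in collagen-rich wells, but its excess lay in 1 well per batch: without CD45- replicate 54 of batch 1 the log2 ratio of 3.33 was 0.10, and without replicate 72 of batch 2 that of 4.79 was 0.25. Rpl18 (81.9 and 58.2 against 40.7 and 31.7 CPM, ratios of 0.99 and 0.85) and Rps16 (17.1 and 27.3 against 9.86 and 10.8 CPM) came next, with Rpl7l1 (176 and 235 against 105 and 112 CPM). Lower in endothelial wells were Rpl39 (183 and 90.15 against 301 and 149 CPM, ratios of -0.72 and -0.72), Rps10 (234 and 136 against 333 and 183 CPM), Rps27l (811 and 437 against 1002 and 675 CPM) and Rplp0 (540.4 and 410.2 against 616 and 773 CPM). The members' median was 0.24 in batch 1 and -0.06 in batch 2, against -0.16 and 0.03 for all genes tested.

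For C1q-rich over the other CD45+ wells, 1 of 54 members was called, against 32.7% of genes tested, and 0 of 41 at 100 CPM or more, against 18.5%. This was Rpl15 (41.1 and 10.2 against 1.77 and 0.449 CPM), whose ratio in batch 2 was 0.50 without CD45+ replicate 3 in place of 2.95. The other members that stood higher were Rplp1 (821 and 596 against 471 and 340 CPM), Rpl39 (312 and 169 against 193 and 11.7 CPM) and Rps19bp1 (66.6 and 34.2 against 45.4 and 0.898 CPM). Lower in C1q-rich wells in both batches were 28 of the 54 members, against 13.1% of all genes tested, and 23 of 41 at 100 CPM or more, against 30.1%. Among them were Rps10 (265 and 222 against 412 and 478 CPM), Rpl14 (912 and 1198 against 1576 and 1697 CPM) and Rpl4 (354 and 1067 against 637 and 1617 CPM). The ratio of Rpl4 in batch 2 was 0.45 without CD45+ replicate 59 in place of -0.60, since only 6 other wells stand behind that value, and 16 of the 41 members at 100 CPM or more moved over 1.5-fold in batch 2 when 1 well was left out. The members' median was -0.21 and -0.24, against 0.39 and 2.21 for all genes tested. At 100 CPM or more, the gap was small or absent, with members' medians of -0.23 and -0.30 against -0.09 and -0.30 for all genes.

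For C1q-rich over collagen-rich wells, 0 of 55 members were called, against 35.6% of genes tested, and 0 of 41 at 100 CPM or more, against 37.4%. These wells make up most of the gate comparison, so the values are not further evidence. Rps18 (1275 and 785 against 679 and 469.8 CPM), Rps9 (1610 and 1698 against 913 and 1038 CPM) and Rpl22 (715 and 359 against 419 and 232 CPM) were among the highest. Rpl22l1 (56.99 and 48.98 against 117 and 73.6 CPM), Rpl4 (354 and 1067 against 761 and 1420 CPM), Rpl13a (1490 and 1475 against 1932 and 1957 CPM) and Rpl29 (116 and 128 against 144 and 157 CPM) stood lowest.

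How far a value rests on single wells followed the level. Among the 41 members of at least 100 CPM, no well held more than 19.5% of a member's reads in a plate. Among members under 10 CPM, 1 well held over 50% of the reads for 5 of 26, 9 of 27, 13 of 26 and 8 of 27 members with reads in the 4 plates. With each kept well left out in turn, no member of at least 100 CPM moved by more than 1.5-fold between the gates, while 5 of the 58 members tested in batch 1 and 7 in batch 2 did. Rps19bp1, read by 98 wells, was one of these: it stood at 20.9 and 56.3 CPM in the CD45- gate and 62.99 and 31.6 CPM in the CD45+ gate, and without CD45+ replicate 15 of batch 2 its ratio there was -2.77 in place of -0.81.

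Genes that act with the ribosome were read from lists for comparison between the gates. Of 14 tested elongation and other genes whose messages are known to carry the pyrimidine run, 0 were called, with medians of -0.03 and -0.08. Rack1, a scaffold on the small subunit and the most abundant of them, stood at 659.8 and 655 against 821 and 669 CPM, Eef2, the translocation factor, at 322 and 340.0 against 308 and 306 CPM, and the nucleolar chaperone Npm1 at 288 and 263 against 261 and 245 CPM. Of 13 initiation factors, 0 were higher and 1, Eif6, was lower, while 31.6% of all genes tested were called. Their medians were -0.54 and -0.68, near the -0.51 and -0.50 of all tested genes. The leading genes, each lower in the CD45+ plates like the median gene, were Eif5a (754 and 719.9 against 384 and 520.0 CPM), Eif1 (552 and 615 against 381 and 507 CPM) and Eif3c (510.4 and 457 against 358 and 344 CPM).

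Of 17 ribosome biogenesis genes, 0 were higher and 3 lower (Bop1, Gnl3 and Nop58), while 31.6% of all genes tested were called. Their medians were -1.33 in batch 1 and 0.03 in batch 2, so the batches did not give the same direction. Nop10, of the box H/ACA particles that modify ribosomal RNA, stood at 744 and 542 against 1045 and 663 CPM, Ncl, a nucleolar RNA-binding protein, at 699 and 509 against 561 and 644 CPM, and Nhp2 at 560.2 and 231 against 223 and 302 CPM. Of 66 mitochondrial ribosomal protein genes, which have their own ribosome, 0 were higher and 2 lower (Mrpl20 and Mrpl4), with medians of -0.28 and -0.19. For all genes tested, 31.6% were called and the medians were -0.51 and -0.50. Mrpl52 stood at 940.2 and 529 against 895 and 526 CPM, Mrpl42 at 737 and 550.4 against 914 and 588 CPM, and Mrps14 at 425 and 327 against 684 and 459 CPM. Of 5 genes of the mTORC1 and Myc control of the ribosome, Rptor was higher and 0 lower, beside the 31.6% of all genes called. Rptor stood at 0.443 and 0.0945 against 23.4 and 28.8 CPM, and how far this rests on single wells was not examined. Eif4ebp1, a brake on cap-dependent initiation, stood at 344 and 354 against 357 and 347 CPM, Rheb at 250.045 and 148 against 94.9 and 118 CPM, and Rps6kb1 at 55.1 and 52.7 against 41.9 and 32.2 CPM.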

How the data were processed

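Raw counts of reads were deposited by the authors for each gene in each well, from single cells sorted into lysis buffer, converted with a Clontech SMARTer kit and sequenced in pools. STAR (given as 3.0.4), Subread and featureCounts 1.4.5 were used, per the submitters' processing notes; the role of each, the genome build, the annotation, the use of strand and the treatment of reads with several matches are not given in the sources used here. Repeated gene lines (598 of 41192 in batch 1, 595 of 41228 in batch 2, 2.39 and 2.42% of reads) were dropped, and 40254 of the 40594 shared genes, with all 86 members, were found in a reference name table.

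CPM are reads summed over a plate's or class's kept wells, scaled to a total of 1000000. Log2 ratios used a pseudocount of 1 CPM, which understates the ratio of low genes. No gene test was made, because each gate has 1 plate per batch and no animal is named; genes were called by fold. Unique windows of 50 bases were searched over all GENCODE M21 transcripts on both strands, in the APPRIS principal transcript of each member. The members, gene lists, markers and classes were chosen with earlier results of these data known. Named members were, by the weaker of the batches' log2 ratios, the 6 leading in each direction between gates, 4 in each direction between classes, the 5 with the most reads, the paralogs with their partners and Rps19bp1, and the 3 most abundant genes of other lists; members named for sequence uniqueness, opposite signs or single wells were chosen after their values were seen. A few of the genes so chosen are left out of the text, and Rps4l was not analysed here. Free RNA and wells with more than 1 cell were not modelled. Python 3.11.15, numpy 2.4.6, pandas 2.3.3, scipy 1.17.1, matplotlib 3.10.9 and, for TMM factors, edgeR 4.0.16 in R 4.3.3 were used. Alternatives changed the total, the well filter, the scale, the pseudocount, the member list, the class limits and the fold, and left out each well in turn.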

Additional observations from a re-analysis of the deposited data

Results flagged for a closer look

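For 4 members the ratio between gates was at least 2-fold in opposite directions in the 2 batches. The difference between batches was not tested. The log2 ratio, CD45+ over CD45-, was 3.10 in batch 1 and -1.76 in batch 2 for Rpl15, 3.17 and -1.57 for Rpl12, -3.18 and 2.88 for Rps23, and -2.33 and 1.18 for Rps7. All 4 averaged 10.2 to 20.3 CPM, and at most 4.69% of the coding windows of any of them were unique. A single well held 88.7, 94.6, 95.005 and 90.1% of the reads of Rpl12 in the 4 plates, in the order CD45- batches 1 and 2, then CD45+ batches 1 and 2. For Rpl15 it was 44.6, 32.3, 76.5 and 89.6%, for Rps23 24.95, 39.02, 44.7 and 90.5%, and for Rps7 83.4, 81.1, 11.1 and 94.9%. Without 1 well, CD45+ replicate 57 of batch 1, the ratio of Rpl12 there was -0.56, and without CD45- replicate 72 of batch 2 it was 1.29 in that batch. The ratio of Rps7 in batch 2 was -2.29 without CD45+ replicate 9, and that of Rps23 in batch 2 was 0.14 without CD45+ replicate 61. For Rpl15 no single well turned the sign: the ratio was 1.17 in batch 1 without CD45+ replicate 71 and -4.14 in batch 2 without CD45+ replicate 3.

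Reads on features named as ribosomal protein pseudogenes, which no comparison uses, made up 0.0339% of all reads. Of 239 such features 217 had a read, 39418 reads in all, led by Rpl31-ps8 (3320 reads) and Rpl14-ps1 (3115 reads). Their median share was 0.0358 and 0.0233% in the CD45- wells and 0.0424 and 0.0280% in the CD45+ wells of batches 1 and 2.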

How the results depend on the processing

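Of 122 values recomputed under the alternatives, 110 stayed within the spread set for them, 11 moved and 1 reversed. For median shares the spread was the SD over wells, 0.670 to 1.38 points. This exceeds every gate difference, so these shares could hardly move. For differences of shares and median log2 ratios the spread was an SD of just 2 batch values, and counts could differ up to 1.5-fold. The 110 are thus a weak measure of stability. The gate difference in median share stayed positive in both batches under every alternative tried, from 0.296 points (canonical members, batch 1) to 0.605 (wells of at least 50000 reads, batch 2); with 1 well left out it ranged from 0.337 to 0.368 in batch 1 and from 0.583 to 0.600 in batch 2. The endothelial excess over collagen-rich wells, 0.562 and 0.0706 points, reversed in batch 2 to -0.00467 under stricter class limits but was 0.903 in batch 1 under them; it was 0.907 and 0.261 with mitochondrial and hemoglobin genes out of the total, 0.865 and 0.194 with marker genes out too, and 0.763 and 0.277 in wells of at least 50000 reads; the C1q-rich excess over collagen-rich wells in batch 1 was 0.729 points with mitochondrial, hemoglobin and marker genes out of the total. The members' median log2 ratio was 0.55 and 0.80 under TMM, 0.0438 in batch 1 with no filter on low genes, and 0.21 in batch 1 over members with at least 50% of windows unique, an alternative chosen after seeing the data. Between gates, 5 members were called at 1.5-fold, 0 at 4-fold, 6 under TMM and 3 with no filter on low genes (Rpl27a, Rpl36 and Rps29), and 0 to 2 with 1 well left out, the 2 being Rpl27a and Rpl12. Under the stricter class limits Rpl12 was no longer called for endothelial over collagen-rich wells, and for C1q-rich over other CD45+ wells Rps19bp1 was called in place of Rpl15. The causes were not tested. No paired analysis was possible because replicate numbers only name wells and no test was made. With 1 plate per gate and batch and no animal named, plate, animal and gate cannot be told apart, and members under 10 CPM rest on too few reads and wells to be compared.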
